A study of Yarrowia lipolytica CLIB122 with 6 samples.

Results

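The most abundant transcripts of *Yarrowia lipolytica*, an oleaginous yeast used to make fatty alcohols, were examined in 2 strains whose transcriptomes were compared by RNA-Seq. The members are 200 of the 6452 transcripts in the expression table. They were chosen by their values: among the 6279 rows with a gene number below 7000000, rows with a ratio of the mean FPKM of strain A24 to that of strain C24 of at least 2 or at most 0.5 were dropped, and the 200 rows with the highest C24 mean were kept. FPKM counts fragments per kilobase of transcript relative to all fragments of the library. It is corrected for transcript length, so the levels of different genes can be set side by side. Since the rule used the level in C24 and the ratio between the strains, both are given below as descriptions. Calls from a fit over all transcripts are given only as counts of members, and no single member is given a test.

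The study sequenced 3 libraries of each strain, all from cells collected at 24 h in the initial logarithmic phase of growth in rich medium. It compared WT-FAR, the control, with YlΔA1-FAR, in which the A1 gene (YALI0_A00913g) carries a CRISPR/Cas9 deletion. Both strains carry FAR, a fatty acyl-CoA reductase gene of *Marinobacter aquaeolei* VT8 with adapted codons, which was placed at IntF together with LEU2 and is driven by the TEFin promoter. Both derive from the same laboratory strain, a uracil, leucine and lysine auxotroph that carries PEX17-HA. How many clones of each strain were sequenced is not stated. The sample labels name the strains only A24 and C24; A24 is taken here for the A1 disruptant and C24 for the control from the letters alone, and this reading was not tested, because the tables used here do not pair the tag of A1 with a gene number. The study describes its cultures and transcript levels as biological replicates, while the sample labels do not say from which culture each library came.

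In a growing yeast a small set of genes makes up much of the messenger RNA. In *Saccharomyces cerevisiae* these are above all the genes for ribosomal proteins, translation elongation factors, glycolytic enzymes, histones, chaperones and cell wall proteins, and their transcripts serve as the usual source of strong promoters and of reference transcripts. The expression table gives gene numbers without product names. The RefSeq table of strain CLIB89 (W29), assembly ASM176148v1, gave locus tags for 196 of the 200 members, and it names no products either, so no member is assigned to any of these classes here.

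The members made up 3.10% of the rows and held 43.3% ± 0.305 of the summed FPKM in A24 and 42.5% ± 0.619 in C24 (SD, n = 3 libraries each). By library, they held 43.0%, 43.2% and 43.6% in A24 replicates 1, 2 and 3, and 42.2%, 43.2% and 42.0% in C24 replicates 1, 2 and 3. The 2 strains therefore overlapped in this share, with C24 replicate 2 at the level of A24. The 10 members highest in C24 held 9.72%, 10.1% and 10.3% of the total in the A24 libraries and 8.75%, 9.14% and 8.29% in the C24 libraries, and here the strains did not overlap. The 200 transcripts that followed in the same ranking held 13.5% ± 0.0813 in A24 and 14.0% ± 0.0392 in C24. The summed FPKM over all rows was itself larger in A24, 1279690 ± 20739 against 1219860 ± 9831, so a ratio of FPKM values depends on whether the libraries are put on a common scale.

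**Figure D1:**
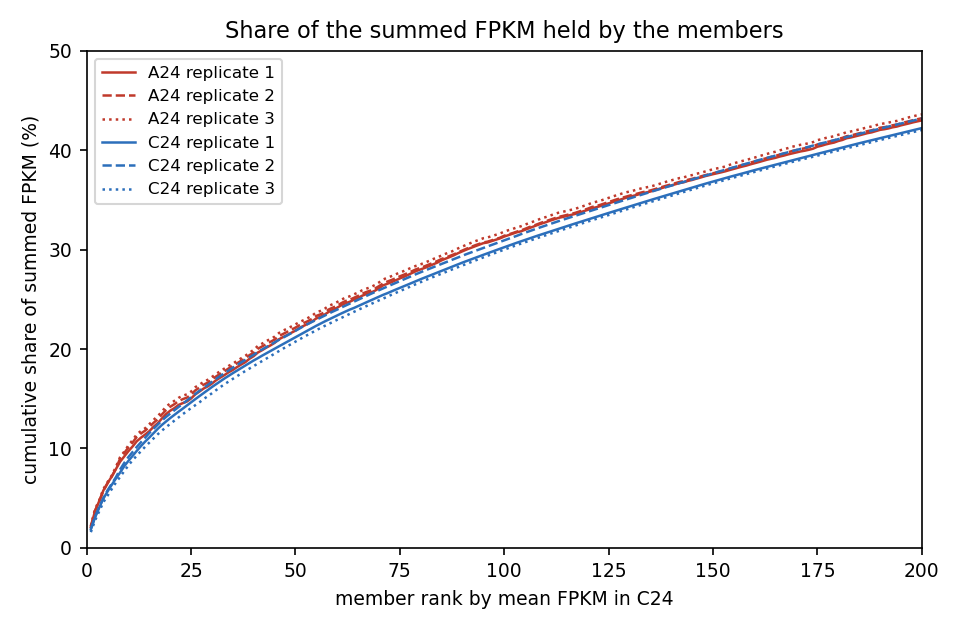
Cumulative share of the summed FPKM of each library (y axis, percent) against the rank of the members by their mean FPKM in C24 (x axis, 1 to 200). Lines are single libraries, A24 in red and C24 in blue; the first 10 members account for 8.29% to 10.3% and all 200 for 42.0% to 43.6%.

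Within the members, the mean level in C24 ran from 1209 to 21709 FPKM, an 18.0-fold range, with a median of 1855 FPKM. The median over all 6052 transcripts tested, those that averaged at least 1 FPKM, was 48.6 FPKM. In A24 the members ran from 792 to 27498 FPKM with a median of 1961 FPKM. The order of the members was largely kept between the strains: the Spearman correlation of the strain means over the 200 members was 0.892, 9 of the 10 highest members were shared, and 17 members changed their place by 50 ranks or more. This correlation is across genes measured in the same libraries and carries no test. The rule also favoured a kept order, since it removed ratios of at least 2 or at most 0.5. The correlation and the shared ranks are therefore descriptions only.

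The highest member in both strains was gene 2912461 (YALI1_E09438g). It had 26501, 27253 and 28739 FPKM in A24 replicates 1, 2 and 3 and 22386, 23432 and 19308 FPKM in C24, so that all A24 values lay above all C24 values, and it alone held 2.15% ± 0.0587 of the summed FPKM in A24 and 1.78% ± 0.178 in C24. The next, gene 2910558 (YALI1_D32832g), had 20621, 19857 and 22127 FPKM in A24 and 14405, 14819 and 14406 FPKM in C24. It was again higher in every A24 library, with a ratio of the means of 1.43. The third, gene 2909710 (YALI1_C12642g), differed little, with 12475, 12054 and 11263 FPKM in A24 and 12049, 12139 and 11228 FPKM in C24, a ratio of 1.01 with overlapping values. In C24 its mean was 11805 ± 502 FPKM and that of gene 2909948 (YALI1_C26377g) was 11127 ± 90.7 FPKM, and the lowest value of the former, 11228 FPKM, lay just above the highest of the latter, 11225 FPKM.

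Gene 2909948 had 13654, 13294 and 15030 FPKM in A24 and 11045, 11111 and 11225 FPKM in C24, and so ranked above gene 2909710 in every A24 library. Gene 2910208 (YALI1_D20676g) had 9408, 9800 and 9030 FPKM in A24 and 8650, 9447 and 8115 FPKM in C24, with overlap. Gene 2905949 (YALI1_A10857g) was the steadiest of the 10 within both strains, with 8361, 8532 and 8546 FPKM in A24 and 8018, 7950 and 8053 FPKM in C24. Its ratio of 1.06 was small, yet no value overlapped, because its coefficient of variation (CV, the SD as a percent of the mean) was 1.22% in A24 and 0.654% in C24. With equal FPKM totals its log2 difference fell from 0.0827 to 0.0137, below its SD of 0.0141 within a strain. Under quantile normalization its difference changed sign, from 0.08 to -0.15 on the log2 scale.

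Genes 2910926 and 2910205, the next in order, have no locus tag in the table used. Gene 2910926 had 9401, 9931 and 11375 FPKM in A24 and 7667, 8120 and 8073 FPKM in C24, higher in all A24 libraries. Gene 2910205 had 9513, 12873 and 12816 FPKM in A24 and 7265, 9547 and 6918 FPKM in C24. Its ratio of 1.48 was larger than that of the other 9, but its values overlapped, since A24 replicate 1 lay below C24 replicate 2. Gene 2909462 (YALI1_C14450g) was the only one of the 10 with a lower mean in A24, at 6690, 7107 and 7246 FPKM against 7705, 8150 and 7257 FPKM. The highest A24 value and the lowest C24 value of this gene were almost equal. Gene 2910103 (YALI1_C07170g) closed the 10 with 6791, 7179 and 8163 FPKM in A24 and 6521, 7317 and 6940 FPKM in C24, and its strains overlapped. From gene 2905949 to gene 2909462, ranks 6 to 9, the C24 means of 8007, 7953, 7910 and 7704 FPKM did not differ beyond their spread, which reached 1428 FPKM for gene 2910205.

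**Figure D2:**
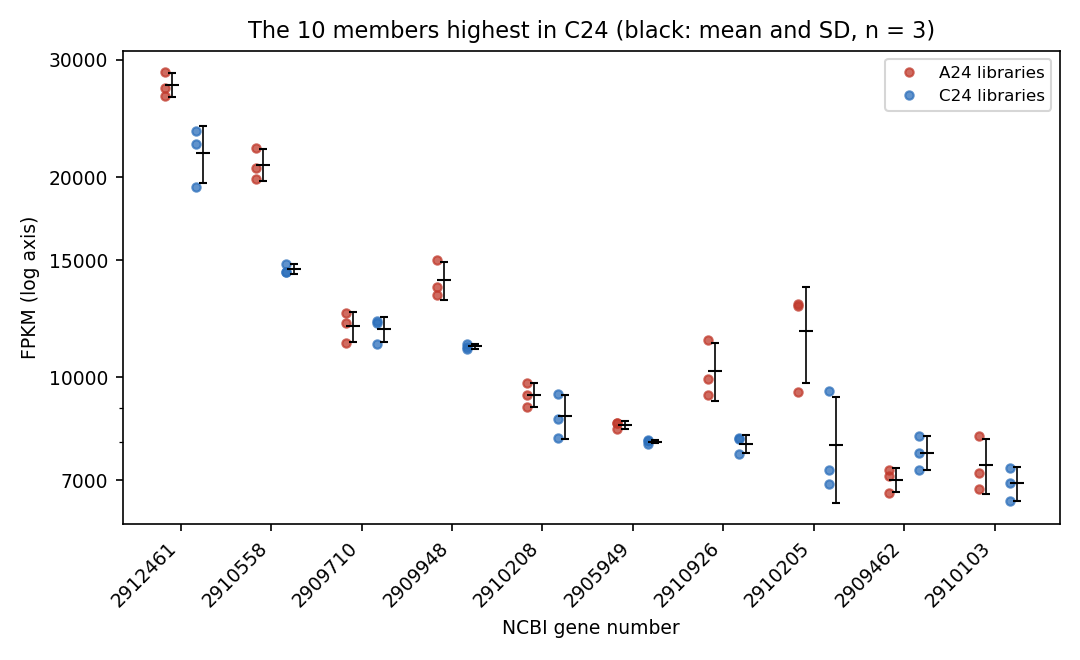
FPKM of the 10 members highest in C24 (log y axis), each library as a point, A24 in red and C24 in blue, with mean and SD in black (n = 3 libraries). In 5 genes all A24 values lie above all C24 values, in 1 gene, 2909462, all lie below, and in 4 genes the strains overlap. Over the 6052 transcripts tested, 28.3% lie above and 43.1% below, 71.3% in either direction. The direction depends on the scaling of the libraries. A ratio above 1 is found in 9 of the 10 as deposited and in 3 after quantile normalization.

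Over all 200 members the ratio of the strain means had a median of 1.04, with the central 50% between 0.931 and 1.13. The ratio was within 1.1-fold of equality in 92 members and within 1.5-fold in 189. Beyond 1.5-fold lay 6 members on the higher and 5 on the lower side. The limits of the ratio were set by the rule and are no result. By rank in C24, the median ratio was 1.17 for ranks 1 to 10, 0.996 for ranks 11 to 50, 1.08 for ranks 51 to 100 and 1.03 for the 100 ranks after these. The ratio thus did not fall steadily with rank.

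In 78 members all A24 values lay above all C24 values and in 55 all lay below, while 67 overlapped. Over the 6052 transcripts that averaged at least 1 FPKM, 28.3% lay above and 43.1% below, 71.3% in either direction; among the members these shares were 39.0%, 27.5% and 66.5%. All 200 members passed that filter on low values. With limma on log2(FPKM + 0.1) over the same 6052 transcripts and an adjusted p-value under 0.05, 74 members were called higher and 48 lower in A24, where 26.8% of all transcripts were called higher and 40.4% lower, 67.2% in either direction. Since the ratio of the same libraries was used to choose the members, nothing is read from these counts about the members.

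The direction of these counts depended on the scale given to the libraries. After median-of-ratios scaling, 105 members lay above and 34 below without overlap, and 35.6% and 34.1% of all transcripts did so. In this setting limma called 103 higher and 30 lower, beside 34.1% and 31.4% of all transcripts. With equal FPKM totals in all libraries, 54 lay above and 68 below, beside 23.2% and 50.7%, and limma called 47 higher and 68 lower, beside 22% and 49.1%. After quantile normalization, 39 lay above and 78 below, beside 29.9% and 41.6%, and limma called 40 higher and 77 lower, beside 28.6% and 38.7%. Members on the higher side thus outnumbered those on the lower side in 2 of the 4 settings. The median log2 difference of the members, 0.06 as deposited, was 0.15, -0.01 and -0.05 in these 3 settings. Over all transcripts tested it was -0.09 as deposited and 0.00, -0.16 and -0.07 after the 3 scalings. A ratio above 1 was found in 9 of the 10 highest members as deposited and after median-of-ratios scaling, in 8 with equal totals and in 3 after quantile normalization. Quantile normalization gives equal ranks equal values, and so it set the differences of genes 2912461 and 2910558 to 0. Beside gene 2905949, it turned genes 2910208 and 2910103 to -0.17 and -0.05 on the log2 scale and gene 2909710 to -0.33. Gene 2909710 was also lower in A24 with equal totals, at -0.05. Gene 2909462, at -0.13 as deposited, was at -0.43 after quantile normalization.

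**Figure D3:**
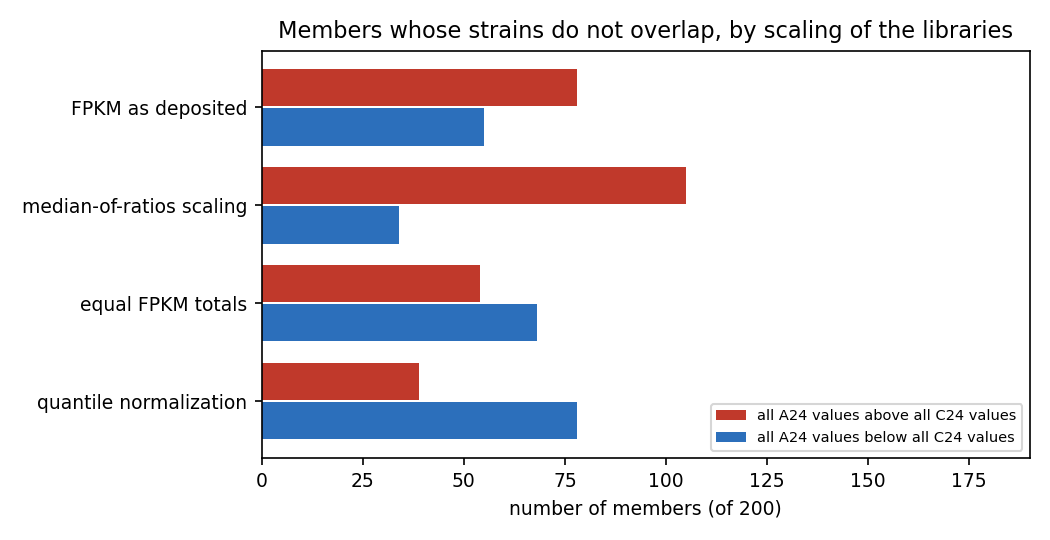
Number of members (x axis, of 200) whose 3 A24 values all lie above (red) or all below (blue) the 3 C24 values, under 4 scalings of the libraries. As deposited the counts are 78 and 55. They are 105 and 34 after median-of-ratios scaling, 54 and 68 with equal FPKM totals and 39 and 78 after quantile normalization. Over all transcripts the shares are, in the same order, 28.3% and 43.1%, 35.6% and 34.1%, 23.2% and 50.7%, and 29.9% and 41.6%.

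The largest ratio among the members was that of gene 2906895 (YALI1_B04589g), with 2452, 2257 and 2495 FPKM in A24 and 1276, 1355 and 1305 FPKM in C24, a ratio of 1.83. Gene 2908673 (YALI1_F24247g) had 2209, 2050 and 2116 FPKM in A24 and 1276, 1293 and 1277 FPKM in C24, a ratio of 1.66. Both lay near the lower end of the members in C24 and well inside them in A24, each with a CV under 6% in either strain. Gene 2909636 (YALI1_C31549g) had 4661, 5110 and 5449 FPKM in A24 and 2805, 3410 and 2978 FPKM in C24, also a ratio of 1.66. Gene 2911146 (YALI1_D24054g) had 3702, 3584 and 3856 FPKM against 2252, 2380 and 2197 FPKM, and gene 2907691 (YALI1_F33345g) had 4470, 4353 and 4653 FPKM against 2821, 2951 and 2973 FPKM. In each of these 5 members every A24 library was above every C24 library, and the gap between the strains was larger than the range within either.

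At the other end, gene 2907995 (YALI1_F32287g) had 888, 941 and 999.7 FPKM in A24 and 1880, 1842 and 1935 FPKM in C24. Its ratio of 0.50006 passed the limit of the rule by a margin far smaller than the spread of its values. Gene 2906475 (YALI1_A20370g) had 2052, 1991 and 1911 FPKM in A24 and 3885, 3868 and 3767 FPKM in C24, a ratio of 0.517. With equal FPKM totals, or after quantile normalization, 2 members fell to a ratio of 0.5 or less. Gene 2911456 (YALI1_E35410g) had 949.69, 955 and 888 FPKM in A24 and 1551, 1524 and 1497 FPKM in C24. Gene 2911528 (YALI1_E17643g) had 799, 788 and 790.4 FPKM in A24, the lowest A24 values of any member, and 1287, 1265 and 1241 FPKM in C24. Gene 2910838 (YALI1_D11769g) had 2318, 2601 and 2709 FPKM in A24 and 3700.2, 4129 and 3952 FPKM in C24, a ratio of 0.648. In all 5, every A24 library was below every C24 library.

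**Figure D4:**
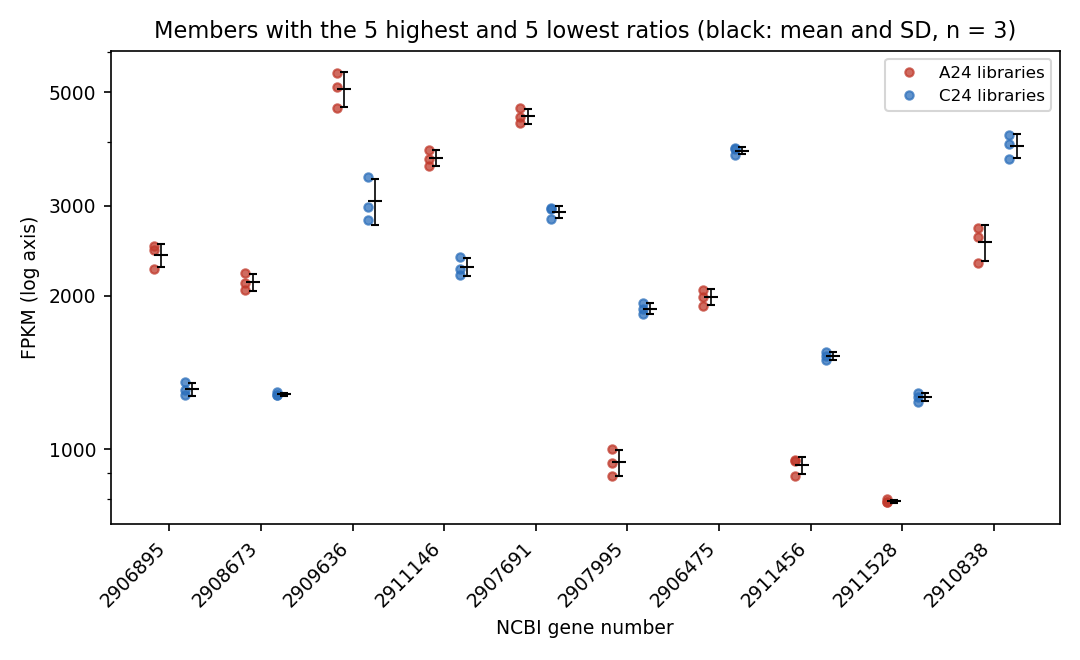
FPKM of the members with the 5 highest (left) and the 5 lowest (right) ratios of A24 to C24 (log y axis), each library as a point with mean and SD in black (n = 3 libraries). No gene shows overlap between the strains, as the choice of extreme ratios favours; ratios run from 1.83 for gene 2906895 to 0.50006 for gene 2907995.

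Just past the limits of the ratio, at the level of the members, stood gene 2911079 (YALI1_D26051g) with 6482 ± 753 FPKM in A24 and 3169 ± 294 in C24, a ratio of 2.05, and gene 2909288 (YALI1_C04570g) with 2902 ± 44.3 and 1379 ± 50.4 FPKM, a ratio of 2.10. On the lower side, gene 2908688 (YALI1_F27211g) had 1003 ± 27.7 FPKM in A24 and 2316 ± 42.4 in C24, and gene 2907498 (YALI1_B22614g) had 532 ± 16.5 and 1234 ± 17.4 FPKM, ratios of 0.433 and 0.431 (SD, n = 3 libraries each). In all, 4 transcripts at or above the level of the lowest member were removed for a ratio of 2 or more. For a ratio of 0.5 or less, 2 were removed. Among rows with gene numbers below 7000000, 6 transcripts of this level thus lay beyond the limits beside the 200 inside them. A further 9 with gene numbers from 7000000 upwards and 4 without a gene number reached the same level and were outside the rule. Among the latter, a transcript with 637 FPKM in A24 and 1349 FPKM in C24 also lay beyond the limits, at a ratio of 0.472.

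**Figure D5:**
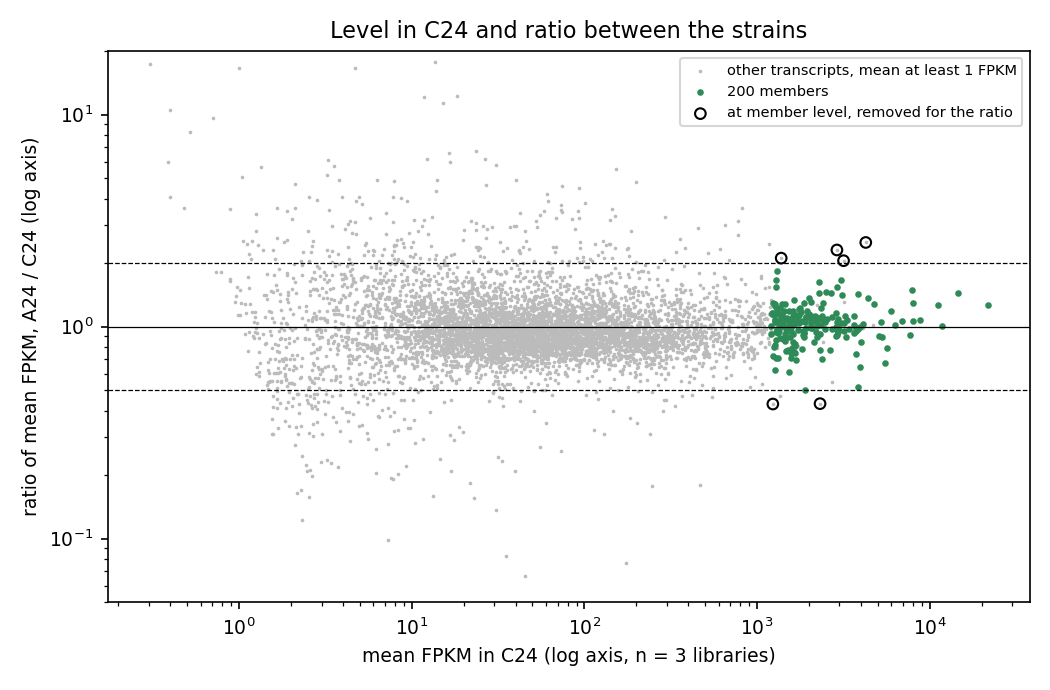
Ratio of mean FPKM, A24 to C24 (log y axis), against mean FPKM in C24 (log x axis) for transcripts that averaged at least 1 FPKM; transcripts at 0 in a strain or beyond the y axis are not drawn. The 200 members (green) start at 1209 FPKM and lie between the dashed limits 0.5 and 2; open circles are the 6 transcripts at this level removed for their ratio.

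The limit of rank fell in a dense part of the distribution. The last members were gene 2910156 (YALI1_D26263g) at 1215 ± 18.5 FPKM in C24, gene 2910195 (YALI1_D27826g) at 1212 ± 24.3 and gene 2905756 (YALI1_A00406g) at 1209 ± 14.3. The first transcripts outside were gene 2906983 (YALI1_B10607g) at 1205 ± 18.8 FPKM, gene 2909783 (YALI1_C10555g) at 1202 ± 22.7 and gene 2909316 (YALI1_C08702g) at 1197 ± 27.2 (SD, n = 3 libraries each). The last member and the first transcript outside, at 1209 and 1205 FPKM, differed by less than the SD of either. All 6 means lay between 1197 and 1215 FPKM, with SDs of 14.3 to 27.2 FPKM. Ranking by the A24 mean instead kept 181 of the 200 members, ranking by the mean of all 6 libraries kept 192, and leaving out any single library kept 197 to 200.

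Replicate libraries agreed closely in these strong transcripts. The median CV of the members was 3.98% in A24 and 2.77% in C24, beside 4.86% and 4.30% over all transcripts tested and 3.53% and 2.74% over the 200 transcripts that followed in rank. The CV was under 5% in both strains in 115 members (57.5%), beside 37.2% of all transcripts tested. Without A24 replicate 3 the median CV of the members in A24 was 2.51%, where a CV over 2 libraries tends to be lower than one over 3. The depth behind these values is unknown, so the part of counting error in this difference was not tested. The steadiest member over all 6 libraries was gene 2912276 (YALI1_E06015g), with 1546, 1543 and 1546 FPKM in A24 and 1542, 1524 and 1577 FPKM in C24, a CV of 1.11% over the 6 values. Gene 2909043 (YALI1_F20914g) had 2443, 2429 and 2356 FPKM in A24 and 2342, 2377 and 2351 FPKM in C24, a CV of 1.80%. Gene 2911002 (YALI1_D12930g) followed with 1916, 1833 and 1909 FPKM against 1893, 1958 and 1907 FPKM, a CV of 2.14%. In all 3 the strains overlapped. The largest CVs over the 6 libraries, 36.7%, 35.0% and 32.5%, belonged to genes 2907995, 2906475 and 2906895, the members nearest to the limits of the ratio, and came from the gap between the strains.

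Within a strain, 11 members had a CV over 10% in A24 and 6 in C24, and 3 had one in both. These 3, named after their values were seen, were gene 2910205 described above, gene 2908177 (YALI1_F14729g) and gene 2912897 (YALI1_E41061g). Gene 2908177 had 1407, 1749.9 and 1942 FPKM in A24 and 1321, 1642 and 1357 FPKM in C24. Gene 2912897 had 1286, 1624 and 1745 FPKM in A24 and 1248, 1547 and 1246 FPKM in C24. All 3 shared a pattern, in which A24 replicate 1 was the lowest A24 library and C24 replicate 2 the highest C24 library. Their CVs were 15.3% to 16.4% in A24 and 12.2% to 18.1% in C24.

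Single libraries also stood apart over the members as a whole. C24 replicate 2 was the highest of the C24 libraries in 102 members (51%), but in 19.6% of all transcripts tested. C24 replicate 1 was the lowest in 105 members (52.5%), against 25.9% of all transcripts tested. In A24, replicate 3 was the highest in 102 members (51%), against 39.0%. In the 200 transcripts that followed in rank, the same 3 shares were 39.0%, 39.0% and 41.0%. The summed FPKM over all rows was also lowest in C24 replicate 1, at 1208550 against 1226330 and 1224690 in replicates 2 and 3. In A24 it was highest in replicate 3, at 1303560 against 1269440 and 1266080 in replicates 1 and 2. Whether these shares hold after scaling of the libraries was not tested. Over the members, the log2 deviations of a library from its strain mean had a Pearson correlation of -0.75 between A24 replicates 1 and 3 and of -0.45 between A24 replicate 1 and C24 replicate 2, where the 6052 transcripts gave -0.39 and -0.06. Libraries with the same number in the 2 strains had correlations of 0.38, 0.44 and 0.13 over the members and of -0.02, 0.04 and 0.08 over all transcripts tested. These correlations are across 200 genes of the same 6 libraries, are not independent and carry no test; deviations within a strain of 3 also sum to 0, which by itself makes correlations within a strain negative.

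By the letter of their locus tags, which names the chromosome in assembly ASM176148v1, 12 members lay on chromosome A, 31 on B, 29 on C, 30 on D, 42 on E and 52 on F. These were 2.17%, 3.64%, 3.59%, 2.99%, 3.14% and 4.24% of the tested transcripts with a tag on each chromosome. The median ratio of the members was 0.982 on A, 1.01 on B, 1.07 on C, 1.02 on D, 1.04 on E and 1.03 on F, so the members of no chromosome stood far from the median of 1.04.

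In the gene order of that assembly, counting protein-coding genes and pseudogenes, 28 members formed 14 pairs of direct neighbours. As deposited, 12 of the 14 pairs had both ratios on the same side of 1, and 120 of the 200 members lay above 1. The median gap between the log2 ratios of a pair was 0.06. The side of 1 depends on the scale of the libraries. After median-of-ratios scaling 147 members lay above 1, with equal FPKM totals 96, and after quantile normalization 81. The sides of the pairs under these scalings were not tested. Genes 2911503 (YALI1_E17214g) and 2911504 (YALI1_E17243g), at 1871 and 3295 FPKM in C24, had ratios of 0.890 and 0.889. Genes 2906411 (YALI1_A10827g) and 2905949 (YALI1_A10857g), at 1828 and 8007 FPKM in C24, had ratios of 1.07 and 1.06. In the pairs on opposite sides of 1, gene 2908447 (YALI1_F32010g) at 0.758 stood beside gene 2908433 (YALI1_F32043g) at 1.29, and gene 2907948 (YALI1_F34397g) at 1.21 beside gene 2907949 (YALI1_F34429g) at 0.931. The largest gap was within a pair on the same side, between gene 2907995 at 0.50006 and gene 2908521 (YALI1_F32305g) at 0.997. The pairs were described after their values were seen and were not tested against pairs of other genes, and the gene order of the strains sequenced was not examined.

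Of the 196 members with a tag, 193 are protein-coding in the RefSeq table and 3 are listed there as pseudogenes, all on chromosome F. Gene 2908370 (YALI1_F12190g) had 3852, 3566 and 3628 FPKM in A24 and 3656, 3594 and 3953 FPKM in C24. Gene 2908869 (YALI1_F23071g) had 3162, 3167 and 3052 FPKM in A24 and 2363, 2585 and 2326 FPKM in C24, with no overlap and a ratio of 1.29. Gene 2908489 (YALI1_F08644g) had 1214, 1454 and 1609 FPKM in A24 and 1162, 1287 and 1243 FPKM in C24, with overlap, and it is the direct neighbour of another member, gene 2908488 (YALI1_F08635g), at 2707 FPKM in C24. The listing as a pseudogene is that of another strain, and whether these genes are intact in the strains sequenced was not tested. Of the members with no locus tag, genes 2910926 and 2910205 were described above. Gene 2911780 had 5689, 5573 and 6531 FPKM in A24 and 4231, 4554 and 4328 FPKM in C24, higher in every A24 library. Gene 2912196 had 1801, 1595 and 1877 FPKM in A24 and 1812, 1847 and 1879.9 FPKM in C24, with overlap. Reads shared between near-identical transcripts were not tested for any member either, since no transcript sequences were used.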

How the data were processed

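The 6 RNA-Seq libraries of *Y. lipolytica* were grouped by their titles, 3 as A24 and 3 as C24. The authors removed rRNA, fragmented the RNA, sequenced on the BGISEQ-500 platform, cleaned the reads (SOAPnuke) and used RSEM for the expression levels. The submitters' processing notes name RSEM 1.2.12, Bowtie2 2.2.5, HISAT2 2.0.4 and DESeq2 1.4.5 without their roles, and the genome build is not given in the sources used here. The authors deposited FPKM values rounded to 2 decimals, and these were used as deposited. Low values showed no common step from which whole reads could be had, so depth is unknown and no counting error is given.

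Transcripts that averaged at least 1 FPKM were compared with limma 3.58.1 in R 4.3.3 on log2(FPKM + 0.1), with eBayes and a trend, two-sided, with Benjamini-Hochberg adjustment. The pseudocount hardly moves values as high as these. The fit was tested on simulated data. NOISeq, which the study's methods name, was not run. Python 3.11, pandas 2.3.3 and matplotlib 3.10.9 were used for the rest.

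The members and lists were chosen with earlier results of these data known. Named genes are the 10 highest in C24, the 5 highest and 5 lowest ratios, those at the limits of the rule, and the 3 largest and 3 smallest CVs; others are marked. Lists by function could not be filled, because no product names were given. The RefSeq table was used only for tags, types and gene order.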

Additional observations from a re-analysis of the deposited data

How the results depend on the processing

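The counts of members called by limma, 74 higher and 48 lower in A24, stood beside 26.8% and 40.4% of all transcripts. They stayed within 1.5 times under pseudocounts of 1 and 0.01, no filter, a filter of 10 FPKM and eBayes without a trend. Of all transcripts, 24.7% to 27.4% were called higher and 39.2% to 41.7% lower in these settings. Requiring also a log2 difference beyond 0.5 left 12 higher and 8 lower members, where 11.3% and 10.9% of all transcripts passed. The rule had removed the largest ratios from the members but not from all transcripts. Fewer members passing was thus favoured by the rule, and nothing is read from it. Median-of-ratios scaling gave 30 lower members by limma and 34 below without overlap, beside 31.4% and 34.1% of all transcripts. The median log2 difference was then 0.15. Equal FPKM totals gave 47 higher members by limma, beside 22% of all transcripts, and a median of -0.0098. Quantile normalization gave 40 higher and 77 lower by limma, beside 28.6% and 38.7% of all transcripts, and 39 above without overlap, beside 29.9%. It gave a median of -0.0505 and turned gene 2905949 to -0.15. When single libraries were left out, limma gave 51 to 70 higher and 38 to 47 lower members. Of all transcripts, 24.4% to 26% were then called higher and 36.3% to 40% lower. Without overlap, 80 to 92 members lay above and 55 to 63 below, beside 29.4% to 31.3% and 44.1% to 48.5% of all transcripts. Those counts without overlap cannot fall when a library is left out, and a median CV over 2 libraries tends to be lower than over 3, so neither shows stability. The median log2 difference stayed between 0.04 and 0.07, and the median CV between 2.51% and 3.46% in A24 and between 2.23% and 2.33% in C24. With the replicate number as a block, limma called 80 higher and 50 lower members, beside 27.9% and 42.3% of all transcripts. Of these members, 74 and 47 were shared with the calls without the block. The fit without the block took no pairing by number. Over all transcripts tested, libraries of equal number had deviations with correlations of -0.02, 0.04 and 0.08. These do not settle whether the numbers mark a pairing, since the strongest transcripts gave higher ones. The same correlations were 0.38, 0.44 and 0.13 over the members and 0.35, 0.47 and 0.15 over the 200 transcripts that followed in rank. Over those 200 transcripts, every library correlated best with its own number. Over the members, the libraries of number 3 did not, at 0.126 with each other. There, A24 replicate 3 had 0.135 with C24 replicate 2, and C24 replicate 3 had 0.159 with A24 replicate 1. Whether libraries of equal number shared a batch was not tested. Which scaling suits these libraries best was not tested, and the unknown depth limits the reading of the CVs.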
